A study of Mus musculus with 4 samples.

Results

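ETS family transcription factors were followed in mouse ovarian cancer cells before and after selection in the omentum. The members were Etv1, Etv4, Etv5, Ets1, Ets2, Elf3, Ehf, Erg, Fli1 and Elk3, which are 10 of the 22911 gene symbols named on the array and were measured by 15 probes. This set was selected on measured values of these arrays, since the loss of Etv1 signal in GO2 cells prompted it, so the differences between cell lines in these 10 genes are given as a description without a test. Transcripts of 6 members were well above background in at least 1 cell line, and the 4 others (Elf3, Ehf, Erg and Fli1) were not on any array.

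Total RNA of cultured ID8G and GO2 cells was hybridized to Agilent one-color mouse expression arrays, with 2 arrays per cell line. ID8 is a line of spontaneously transformed ovarian surface epithelial cells from C57BL/6 mice, and ID8G cells are ID8 cells that carry a retroviral GFP transgene. GO2 cells descend from ID8G cells that were injected intraperitoneally into female C57BL/6J mice. From omental tumors, GFP-positive cells without the leukocyte marker CD45 were sorted and injected once more. GO2 cells were sorted in the same way from the omental tumors that grew. Both lines therefore carry GFP and were kept in the same medium, and GO2 is a single selected line. Nothing in the labels says that the 2 arrays of a line came from separate cultures, so a p-value measures only the spread between these arrays, which may be technical. All 4 arrays lay on 1 slide with those of each line side by side, so that position on the slide and cell line cannot be told apart.

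ETS factors share a winged helix-turn-helix domain that binds DNA at a GGAA core, and the flanking bases, partner proteins and phosphorylation set where each one acts. Many are end points of growth factor signaling: RAS and ERK phosphorylate Ets1, Ets2 and the ternary complex factors, and they raise transcription of the PEA3 factors Etv1, Etv4 and Etv5, which the repressor capicua otherwise holds down. In tumors, Etv1 and Etv4 are known from gene fusions in prostate cancer and Ewing sarcoma, whereas Ehf and Elf3 are found in differentiated epithelia, and Erg and Fli1 in endothelial and blood cells.

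The starts of the PEA3 genes that RefSeq places in GRCm38.p6 are shown first, because this group held the 2 members with the largest decreases. Each window runs from 250 bases before to 50 bases after a transcript start and is read 5′ to 3′ on the strand of the gene, and capitals mark the core GGAA and its reverse complement TTCC. Of the 10 members, 6 had such a window, with 10 windows in all, and Etv4, Ets1, Ehf and Fli1 were not matched.
Etv1, chr12:38779832-38780131, plus strand: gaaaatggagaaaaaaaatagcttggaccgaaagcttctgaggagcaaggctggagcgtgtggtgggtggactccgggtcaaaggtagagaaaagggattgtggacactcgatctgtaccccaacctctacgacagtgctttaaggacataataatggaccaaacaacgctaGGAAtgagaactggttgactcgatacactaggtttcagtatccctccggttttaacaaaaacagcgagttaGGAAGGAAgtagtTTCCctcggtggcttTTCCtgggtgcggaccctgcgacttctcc
Etv1, chr12:38783461-38783760, plus strand: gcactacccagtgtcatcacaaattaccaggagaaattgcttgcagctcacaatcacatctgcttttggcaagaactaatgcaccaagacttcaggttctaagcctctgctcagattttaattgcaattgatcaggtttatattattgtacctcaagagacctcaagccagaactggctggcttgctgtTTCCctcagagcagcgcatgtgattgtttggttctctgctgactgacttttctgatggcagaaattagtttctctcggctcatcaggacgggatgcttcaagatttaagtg
Etv5, chr16:22438319-22438618, minus strand: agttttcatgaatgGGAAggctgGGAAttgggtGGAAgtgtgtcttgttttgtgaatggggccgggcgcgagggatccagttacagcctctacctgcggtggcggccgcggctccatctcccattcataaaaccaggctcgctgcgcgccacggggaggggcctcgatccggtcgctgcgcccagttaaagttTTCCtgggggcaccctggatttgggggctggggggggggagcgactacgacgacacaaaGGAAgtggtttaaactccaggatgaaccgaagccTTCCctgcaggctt
Etv5, chr16:22439521-22439820, minus strand: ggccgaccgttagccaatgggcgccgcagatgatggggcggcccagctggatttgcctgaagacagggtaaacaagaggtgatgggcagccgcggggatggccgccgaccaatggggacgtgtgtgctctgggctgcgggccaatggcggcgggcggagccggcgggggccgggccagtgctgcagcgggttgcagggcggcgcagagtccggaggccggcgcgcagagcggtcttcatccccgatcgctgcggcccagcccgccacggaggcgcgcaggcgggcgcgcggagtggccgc

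The first Etv1 window held 5 GGAA cores on both strands together and the second held 1. The first Etv5 window held 6 and the second held none. A core of 4 bases is common, as 96.0% of 32851 windows of the same length held at least 1, with a median of 3, and 28.6% held 5 or more. The longer ETS site CCGGAAG, which contains the core, occurs in 8.86% of all windows, the AP-1 site TGANTCA in 7.81%, and the capicua octamer TGAATGNA in 3.82%. On either strand, none of these 3 motifs was found in the 10 member windows, and GGAA was found in 9 of them. These counts describe the letters of the windows only.

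Levels are log2 intensities from which the 75th percentile of the same array was subtracted, so that a level of 0 lies at that percentile, and a difference is the mean GO2 level minus the mean ID8G level on this scale. Levels are compared between arrays for one probe and never between probes, because probes differ in how strongly they hybridize. In these cultures a lower value may mean fewer cells that express a gene or less RNA per cell, and the arrays cannot tell these apart. A gene was called when its adjusted p (limma, Benjamini-Hochberg over 28368 probes) was below 0.05 and its difference was at least 2-fold, and a gene with several probes is represented by its brightest tested probe.

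Of the 6 members tested, 2 were called lower in GO2 cells (Etv1 and Etv4) and 0 were called higher. Among all 13215 genes tested in the same way, 9.92% were called, 3.94% lower and 5.98% higher. Without the requirement on fold, 3 members were past the adjusted p lower in GO2 cells (Etv1, Etv4 and Ets2) and 1 was past it higher (Elk3), where 41.0% of all genes were past it in either direction. The median difference was -0.52 for the 6 members and -0.00041 for all genes tested. Since the members were selected on this contrast, nothing is read from these counts.

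**Figure D1:**
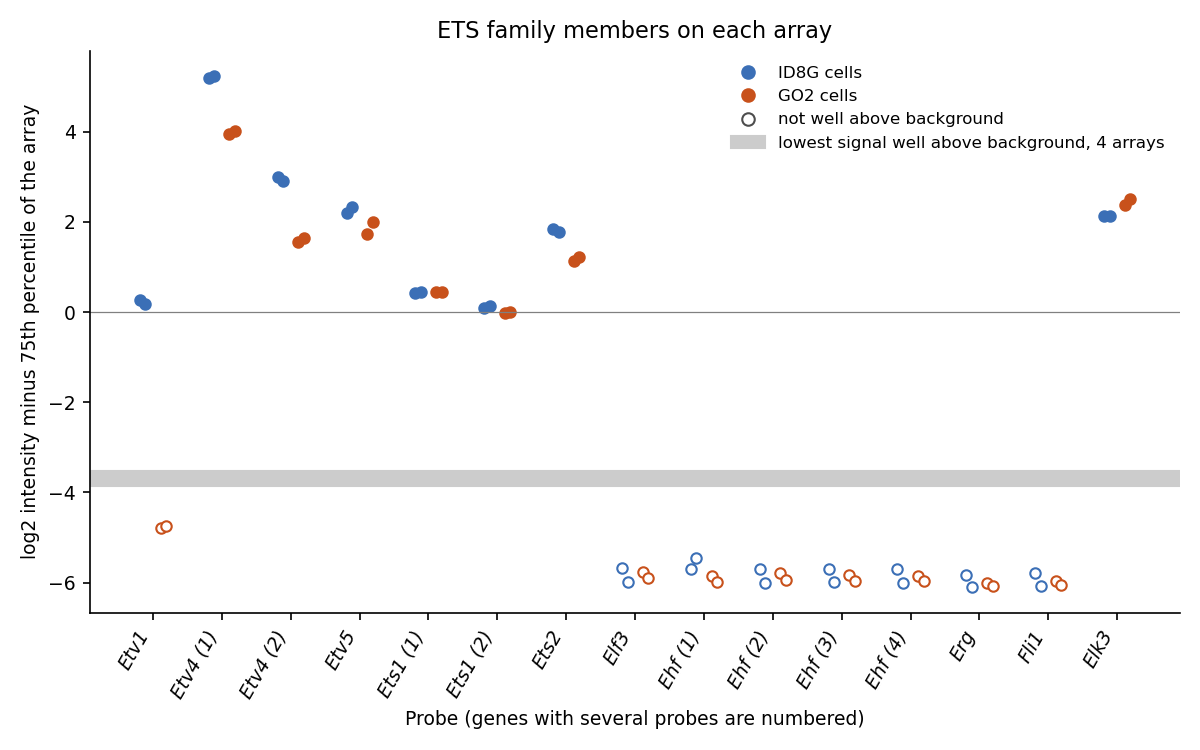
Log2 level, relative to the array's 75th percentile, of each of the 15 probes for the 10 ETS genes, with 1 point per array, 2 for ID8G cells and 2 for GO2 cells; open points were not well above background, the grey band spans the lowest signals well above background on the 4 arrays, and heights of different probes are not comparable. The GO2 points of Etv1 lie at -4.78 and -4.74, under the band, while those of ID8G cells lie at 0.26 and 0.19.

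Etv1 is a PEA3 factor that activates transcription downstream of receptor tyrosine kinases. Its single probe (A_66_P135185) had levels of 0.26 and 0.19 in ID8G cells, against -4.78 and -4.74 in GO2 cells. Both ID8G arrays were far above both GO2 arrays, and the signal was well above background on each ID8G array and on neither GO2 array. The means were 0.22 ± 0.05 (SD, n = 2) in ID8G cells and -4.76 ± 0.03 (SD, n = 2) in GO2 cells, a measured difference of -4.99 (standard error 0.06). Because the GO2 signal lay below the measurable range, the change is bounded against the lowest signal well above background on each GO2 array. By this limit Etv1 was at least 16.4-fold lower in GO2 cells. It is a working limit, as some probes above it were not marked well above background. Every bound given here is relative to it. The measured difference was smaller, -2.94, with normexp background correction, which compresses dim signals. With 1 probe, transcript forms of Etv1 that lack the probed stretch were not measured.

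Etv4, also called PEA3, is the founding member of the subfamily. Its brighter probe (A_55_P2078780) had levels of 5.18 and 5.23 in ID8G cells and 3.95 and 4.01 in GO2 cells. The second probe (A_55_P1959521) had levels of 3.00 and 2.91 in ID8G cells and 1.56 and 1.65 in GO2 cells. Both probes were detected above background on every array, and on each the GO2 arrays lay below the ID8G arrays without overlap. The brighter probe differed by -1.23 (standard error 0.06), which is 2.34-fold lower, and the second by -1.35 (standard error 0.07), which is 2.55-fold lower. Unlike Etv1, Etv4 remained measurable in GO2 cells.

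Etv5 (ERM), the last PEA3 factor, differed less. The probe A_55_P2037454 gave 2.20 and 2.33 in ID8G cells and 1.73 and 1.99 in GO2 cells. The GO2 arrays were lower, and their own gap was wider than that of the ID8G arrays. The difference was -0.41 (standard error 0.11) and was not called. All 3 PEA3 genes were therefore lower on both GO2 arrays than on either ID8G array, over a span from 1.32-fold for Etv5 to at least 16.4-fold for Etv1.

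Ets1 and Ets2 are close relatives that carry a Pointed domain and a docking site for ERK. Ets2 (A_52_P658122) had levels of 1.85 and 1.78 in ID8G cells and 1.13 and 1.22 in GO2 cells. The GO2 arrays were lower without overlap, with a difference of -0.64 (standard error 0.06), or 1.56-fold, which is under the 2-fold limit. Ets1 (A_52_P232830) had nearly the same level on all arrays, 0.42 and 0.43 in ID8G cells and 0.43 and 0.44 in GO2 cells. Its difference was 0.01 (standard error 0.05), and that of the dimmer Ets1 probe (A_52_P194250) was -0.12 (standard error 0.05), from levels of 0.09 and 0.14 in ID8G cells and -0.02 and 0.01 in GO2 cells. The sign of the Ets1 difference also turned with background correction by normexp (-0.10), with median centering (-0.02), with scaling to spike-ins (-0.20) and with the mean over both probes (-0.05).

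Elk3 (Net) is a ternary complex factor, which binds serum response elements together with SRF and represses them until ERK phosphorylates it. Its probe (A_52_P627357) had a level of 2.13 on both ID8G arrays, below the 2.38 and 2.51 measured in GO2 cells. It was the member with the highest difference, 0.32 (standard error 0.07) or 1.25-fold higher on the GO2 arrays, and was not called.

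Elf3 (ESE-1) and Ehf (ESE-3) are factors of epithelial differentiation. The Elf3 probe and each of the 4 Ehf probes were not well above background on any array, with measured levels from -6.01 to -5.45, where the lowest signals well above background were -3.85 to -3.53. The probes of Erg and Fli1, which specify endothelial and blood cells, were likewise below that limit on each array, between -6.10 and -5.79. No fold is given for these 4 genes, because neither cell line had a measurable level.

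**Figure D2:**
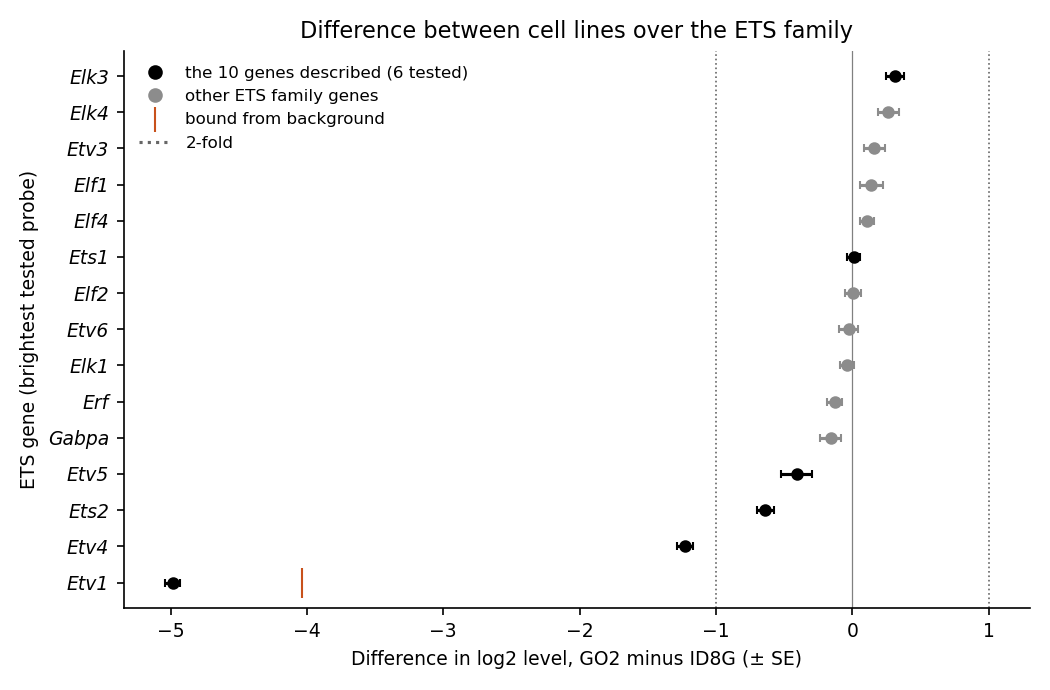
Difference in log2 level (GO2 minus ID8G, horizontal axis) with its standard error for the 15 ETS genes tested, in black for the 6 members and in grey for the 9 other genes of the family; the red tick marks the bound for Etv1 and dotted lines mark 2-fold. The 9 grey points lie between -0.16 and 0.27, while the members run from -4.99 (Etv1) to 0.32 (Elk3).

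The rest of the family is what remained after the members were chosen with earlier results of these data known. Its contrast with the members is therefore a description and no independent test. Of 27 ETS genes listed, 26 were found on the array and 16 of these are not members. Among these, 9 were tested and 0 were called (limma), where 9.92% of all 13215 genes tested were called. Their differences ranged from -0.16 to 0.27 with a median of 0.01, and 0 had an adjusted p below 0.05 by their brightest probe. At an unadjusted p below 0.05, limma counted 1 of the 9 and the test named in the study's methods counted 0. The gene that limma counted was Elk4, a ternary complex factor like Elk3, at 0.27 (limma, adjusted p = 0.0647). A dimmer Elk4 probe (A_55_P2088075), not well above background on the ID8G arrays, was at least 1.20-fold higher in GO2 cells (measured difference 0.55, limma, adjusted p = 0.0287), and the remaining probe differed by -0.04.

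The 3 other genes named for their bright probes are Elk1, Erf and Etv6. Elk1, also a ternary complex factor, had levels of 9.43 and 9.44 in ID8G cells and 9.40 and 9.40 in GO2 cells (A_55_P1954986), a difference of -0.04 with a 95% interval from -0.17 to 0.10. A dimmer Elk1 probe differed by -0.17 (95% interval -0.45 to 0.11). Erf, a repressor that ERK drives out of the nucleus, differed by -0.13 (95% interval -0.28 to 0.02), from 3.69 and 3.71 to 3.53 and 3.60. Etv6 (TEL), a repressor known from leukemia fusions, differed by -0.03 (95% interval -0.22 to 0.16). For the brightest probe of each of the 3 genes the interval lay within 2-fold in either direction, given only the spread between these arrays. Whether other transcripts hybridize to the brightest Elk1 probe was not tested. Elf5, Etv2, Fev, Spi1, Spib and Spic were not well above background on any array, and Spdef was so on 1 GO2 array only.

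Proteins that bind ETS factors or govern their stability and activity formed a list of 19 genes, and all 19 were tested. Of these, 2 were called higher in GO2 cells and 0 lower, with a list median of 0.03. Over all genes tested, 5.98% were called higher and 3.94% lower. Sp100, a nuclear body protein that binds Ets1, went from -2.65 and -2.70 in ID8G cells to -0.56 and -0.52 in GO2 cells. Both GO2 arrays were higher, by 2.14 or 4.40-fold (standard error 0.05, limma, adjusted p = 0.000248). Related copies of Sp100 exist in the mouse genome, and whether they hybridize to this probe was not tested. Runx1, which binds DNA beside Ets1 on shared sites, rose by 1.11 (adjusted p = 0.00100, limma) from -0.01 and -0.02 to 1.05 and 1.15 by its brightest probe. Its other probes were higher by 0.76 and 0.26, and the mean over the probes, 0.71, and the value with spike-in scaling, 0.91, were not called. With limma treat Runx1 also lost its call.

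The capicua complex represses the PEA3 genes. Cic, its DNA-binding subunit, had a mean level of 4.54 ± 0.09 (SD, n = 2) in ID8G cells and 4.61 ± 0.06 (SD, n = 2) in GO2 cells. The arrays of both lines overlapped, and the difference of 0.08 had a 95% interval from -0.12 to 0.27. Atxn1, which stabilizes capicua and was named after its values were seen, stood at 0.68 and 0.64 in ID8G cells and at 1.58 and 1.65 in GO2 cells. Its difference of 0.96 (limma, adjusted p = 0.00124) is just under the 2-fold limit, and a second probe gave 0.76. Atxn1l of the same list, also named later, differed by -0.09 (limma, adjusted p = 0.387), with overlapping arrays. Fos, a partner in composite ETS and AP-1 sites, differed by 0.97 (limma, adjusted p = 0.00208) and was also under the limit. It was well above background on 1 ID8G array, and it passed the limit without ID8G replicate 2 (1.04) or without GO2 replicate 2 (1.01). The coactivator Crebbp (-0.11) and the kinase Mapk3 (0.04) were not called.

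The genes whose transcription ERK signaling raises, several of them through ETS factors, numbered 16 and were all tested. In GO2 cells 2 rose, 3 fell and 11 were not called, with a median of -0.47. The shares over all genes tested were 5.98% higher and 3.94% lower. Ier3, an immediate early gene, fell from 5.00 and 4.95 to 3.03 and 3.06, a difference of -1.93 (limma, adjusted p = 0.000286). The ERK phosphatases Dusp4 and Dusp5, named as the other calls, fell by 1.33 and 1.27 on the log2 scale. Against these, Spry1, a feedback inhibitor of receptor tyrosine kinases, rose by 1.71 (limma, adjusted p = 0.000481), from -0.41 and -0.46 to 1.22 and 1.34. Its relatives Spry2 (-0.42), Spry4 (-0.98), Spred1 (-0.51) and Spred2 (-0.69), named later, were lower and under 2-fold, and Spred3 differed by 0.07. Egr1, a target of the ternary complex factors, rose by 1.56 (limma, adjusted p = 0.000440), from 0.02 and -0.04 to 1.57 and 1.52. Of the 2 named for bright probes, Dusp6, a phosphatase often read as a gauge of ERK activity, differed by -0.14 (95% interval -0.29 to 0.01) and Phlda1 by -0.68 (limma, adjusted p = 0.00450, under 2-fold). Without the fold limit, 4 genes of this list were past the adjusted p higher and 9 lower, where 41.0% of all genes were past it.

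**Figure D3:**
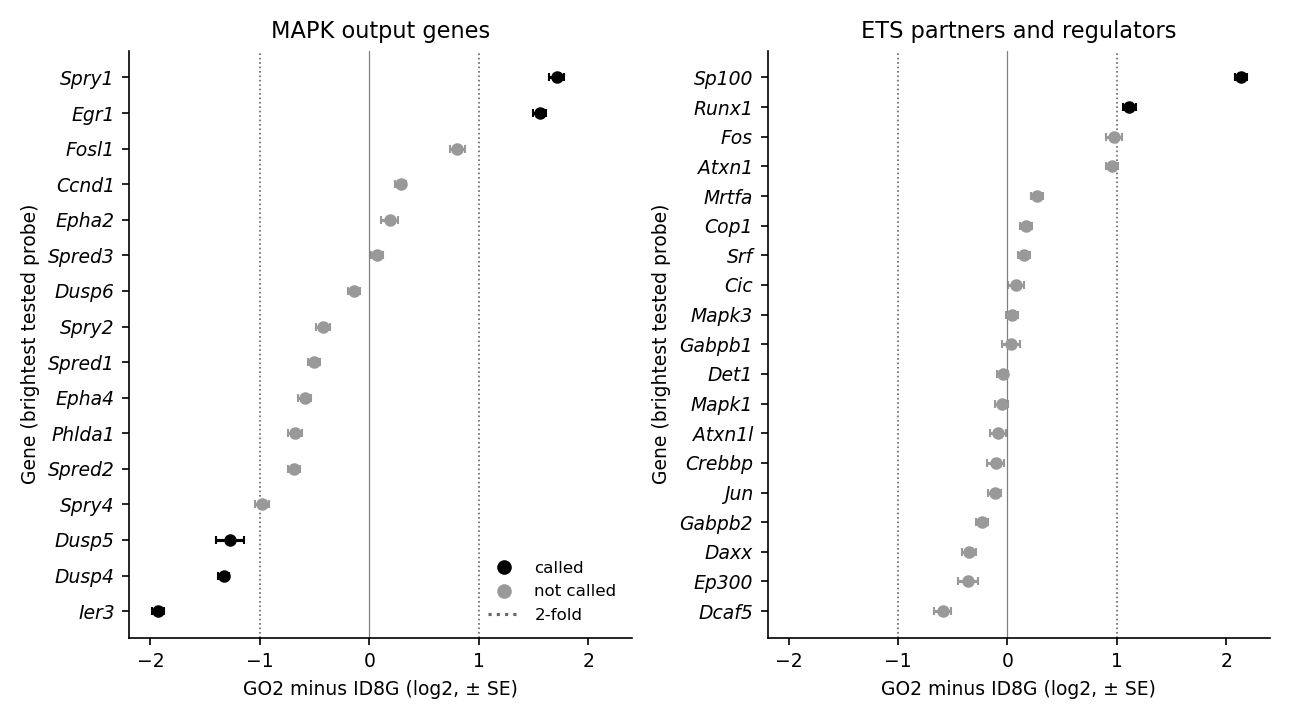
Difference in log2 level (GO2 minus ID8G, horizontal axis) with its standard error for the 16 genes downstream of ERK (left) and the 19 partners and regulators of ETS factors (right); black points were called and dotted lines mark 2-fold. Called genes lie on both sides at left (Ier3 at -1.93, Spry1 at 1.71) and only on the higher side at right (Sp100 at 2.14, Runx1 at 1.11).

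A further list held 16 genes reported as targets of ETS factors in invasion and vessel growth, of which 11 were tested. In GO2 cells 1 rose and 2 fell, with a median of 0.07, against 5.98% called higher and 3.94% called lower over all genes tested. Mmp14, a membrane-bound matrix protease, rose from -2.64 and -2.73 to -0.14 and -0.18, a difference of 2.53 or 5.76-fold (limma, adjusted p = 0.000242). Ptgs2, the inducible cyclooxygenase, fell from 3.29 and 3.33 to 1.49 and 1.43, a difference of -1.85 (limma, adjusted p = 0.000314). Mmp13, a collagenase named as the remaining call, differed by -1.13 (limma, adjusted p = 0.000975). Twist1, a mesenchymal transcription factor, had levels of -3.86 and -5.07 in ID8G cells, neither well above background, and -2.79 and -2.91 in GO2 cells, at least 1.78-fold higher, with an adjusted p of 0.0503 in limma. Its ID8G arrays were farther apart than those of the other named genes of this list. Without ID8G replicate 1 or ID8G replicate 2 it was called, at measured differences of 2.23 and 1.02, but those fits take the spread from the GO2 arrays alone and the bound is all that the ID8G signal allows.

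The protease inhibitor Timp1 (0.74), the receptor Tgfbr2 (0.72) and the urokinase receptor Plaur (-0.53) had adjusted p of 0.00440, 0.00210 and 0.00457 (limma) and were under 2-fold. Cxcr4, Mmp1a, Mmp3, Mmp7 and Mmp9 were not well above background on any array.

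Marker lists give the cell context, and their counts stand beside 5.98% of all genes tested called higher and 3.94% called lower. Of 10 endothelial markers 7 were not well above background on any array, among them Cdh5, Kdr, Tek and Vwf, and of 10 leukocyte markers 5 were not, among them Ptprc (CD45), Adgre1 and Lyz2, and 0 of the 5 tested were called (limma). Erg and Fli1 lay at background together with these markers. By their brightest probe, the 5 leukocyte genes with a level (Itgam, Cd3e, Csf1r, Fcer1g and Cd68) differed by -0.19 to 0.22. A second Itgam probe was well above background on 1 GO2 array only, and a second Cd68 probe on 1 array of each line. The endothelial gene Pecam1 differed by 0.08, while Egfl7 differed by 0.97 (limma, adjusted p = 0.00123, under 2-fold). Robo4, an endothelial guidance receptor that ID8G cells also transcribed, also fell. It stood at -1.53 and -1.28 in ID8G cells, was not well above background in GO2 cells, and was at least 5.29-fold lower (limma, adjusted p = 0.00252). The summed endothelial level was -0.17 to -0.06 in ID8G cells and 0.02 to 0.04 in GO2 cells. A summed level adds unlogged values of the brightest tested probe of each gene on 1 array. Bright probes therefore dominate it, and it does not measure an amount of cells.

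Among 12 epithelial markers, 7 were tested and 2 fell (Cldn3 at -2.37 and Krt19 at -1.65), with a median of -0.55, and the summed level went from 9.09 to 9.13 in ID8G cells to 8.15 to 8.16 in GO2 cells. Epcam, Cldn4, Krt7, Grhl2 and Ovol1 were at background on each array, as were the epithelial factors Elf3 and Ehf. Krt8 and Krt18 were well above background on all 4 arrays, with differences of -0.55 and -0.81, the second of which was called with spike-in scaling (-1.02). The remaining tested epithelial markers, named later, were Cdh1 at -0.34, Cldn7 at 0.02 and Esrp1 at 0.18, and none was called. Of 10 fibroblast markers, 6 were tested and 4 rose, led by the collagen genes Col1a2 (7.49) and Col1a1 (4.69) and the receptor Pdgfra (3.70), with a summed level of 6.49 to 6.54 in ID8G cells and 7.27 to 7.31 in GO2 cells, while Fap, Lum, Postn and Thy1 were at background. Dcn differed by -0.63, and the 3 tested probes of Acta2 disagreed, at 0.30 for the brightest and at 2.71 and 5.64 for the others. The part of these markers in the ETS differences was not tested. Ovarian surface and mesothelial markers were present in both lines, and 1 of 7, Upk3b, was called higher at 1.08. Wt1 (-0.10), Aldh1a1 (0.11) and Msln (-0.82) were not called. With spike-in scaling Upk3b lost its call (0.87) and Msln was called lower (-1.03), and with limma treat Upk3b also lost its call. The summed level of this list was 7.26 to 7.36 in ID8G cells and 7.19 to 7.20 in GO2 cells.

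Genes whose pattern was closest to Etv1 were sought by the root mean square distance between centered levels over the 4 arrays, among 18401 probes that both ID8G arrays measured well above background. Among the 5 nearest were Bcl2l14 (distance 0.18), Cldn2 (0.20), Ddx4 (0.28) and Gm5833 (0.38). Ddx4, a germ cell RNA helicase that like Etv1 was not well above background in GO2 cells, was at least 4.94-fold lower and Gm5833 at least 6.34-fold lower. Bcl2l14 (difference -5.34) stayed well above background on both GO2 arrays at -3.57 and -3.62. With 4 arrays in 2 groups, the distance reads little beyond the size of the difference.

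**Figure D4:**
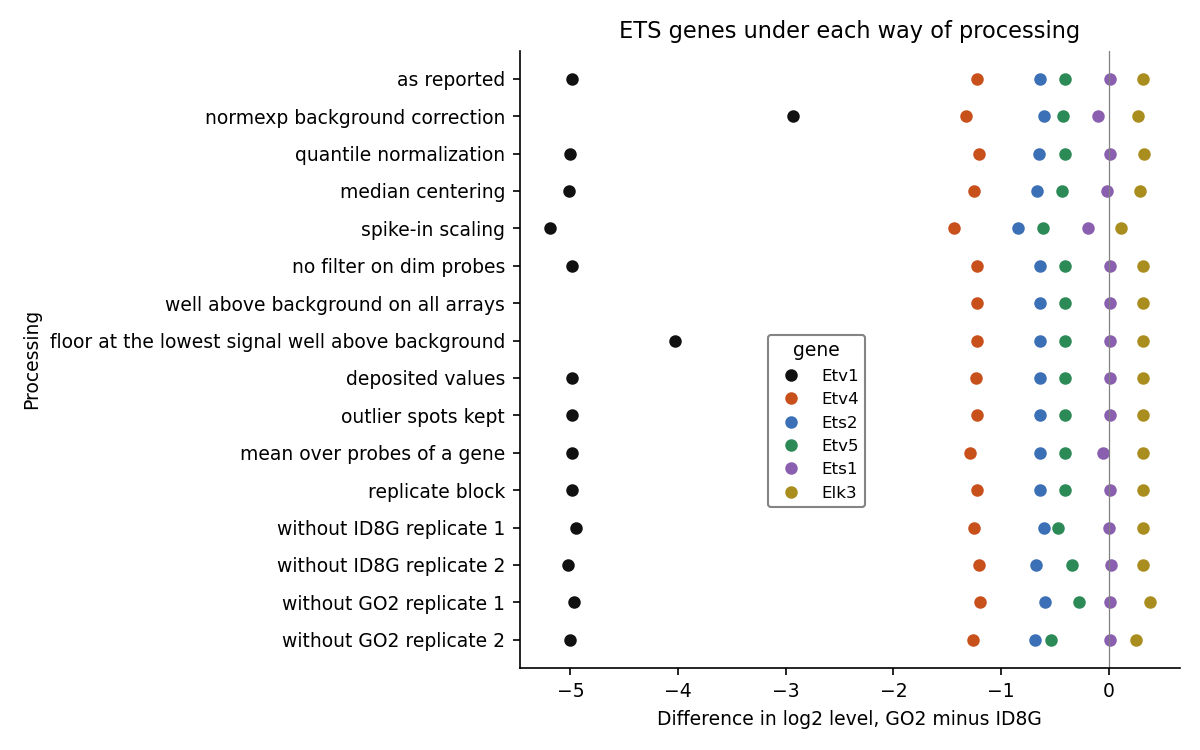
Difference in log2 level (GO2 minus ID8G, horizontal axis) of the 6 measurable members under each way of processing the arrays (vertical axis), with 1 color per gene; tests that leave the differences as they are were left out. Etv1 stays between -5.19 and -2.94 wherever it could be tested and Etv4 between -1.43 and -1.20, while Ets1 changes sign around 0; Etv1 has no point where signal on all 4 arrays was required.

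The differences of the 6 measurable members were recomputed under 17 alternatives for Etv1 and 18 for each other gene. Not all of these could move a difference. The other tests, the filters and the replicate block left the differences as they were, and the floor moved only Etv1. Etv5 stayed between -0.61 and -0.28, Ets2 between -0.85 and -0.59 and Elk3 between 0.11 and 0.38. Scaling to spike-ins moved the median of all probes from -0.02 to -0.23. Relative to that median, the Elk3 difference was 0.34 and the Etv4 difference -1.20, the same as before scaling. That was fixed in advance, because the scaling shifts all probes of an array alike, and it says nothing about stability.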

How the data were processed

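RNA of ID8G and GO2 cells was measured on 2 one-color (Cy3) Agilent arrays per line. The authors deposited scanner files of linear spot intensity, from which Feature Extraction 11.5.1.1 had subtracted background without normalization across arrays, and a table of log2 values that they had scaled to the 75th percentile and centered per probe; the table served for 1 alternative. Of the per-sample columns, 0 were left unused.

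Here spots marked as outliers were left out, log2 intensities of spots of one probe were averaged, and the 75th percentile over 56605 non-control probes was subtracted (675 and 668 on the ID8G arrays, 635 and 627 on the GO2 arrays). On each array 48.6% to 51.0% of probes were well above background and 0 spots were saturated. Replicates correlated at 0.997 across probes, and lines at 0.967 to 0.968. A probe was tested (28368 were) where 1 line or both had signal well above background on each of its arrays. The limma 3.58.1 model in R 4.3.3 had a single term for cell line. Calls needed a Benjamini-Hochberg adjusted p below 0.05 over all probes and a log2 difference of at least 1, which gave 1277 probes higher and 947 lower in GO2 cells. With 2 arrays against 2, an exact permutation test cannot go below 0.333, so the limma values rest on variance pooled across probes, and the number of arrays limits the precision. A probe below background on every array of a line was bounded by the lowest signal well above background. That signal is not a ceiling for undetected probes, since some brighter ones were not marked well above background. The procedure was tested on simulated data. Figures were drawn with matplotlib 3.10.9 in python 3.11.15.

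Symbols came from RefSeq accessions (32994 probes, 58.3%, matched; other probes are unnamed here). The promoter windows are from RefSeq on GRCm38.p6, whereas the array was designed on mm9, and no array coordinate is used. Named are all members, other ETS genes that were called plus the 3 with the brightest probes, from each list the 3 with the brightest probes and the 3 with the largest differences, and the 5 genes closest to Etv1, of which 1 is not reported here; others are said to be chosen later. The members and lists were chosen with earlier results of these data known. Alternatives were normexp (offset 50, on the median pixel of each spot), quantile normalization, median centering, spike-in scaling, no filter, a filter on all 4 arrays and a floor. Others were an intensity trend, a Welch test, limma treat, the deposited log2 values, outlier spots kept and the mean over probes. The last were the replicate number as a block and each array left out.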

Additional observations from a re-analysis of the deposited data

How the results depend on the processing

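The count of members called (2) is a description, since the members were selected on this contrast. When signal on all 4 arrays was required, Etv1 could not be tested and 1 member was called. With limma treat at a minimum log2 difference of 1, Etv4 was not called and 1 member was. Of the list genes 14 were called by it, and Runx1, Mmp13, Dusp5 and Upk3b lost the call. The study names a Welch test in its general statistics, whereas for its arrays it names GeneSpring and no test. With a Welch test here, 0 members and 0 genes of the lists (18 in the limma fit described above) were called after adjustment. Probes called were 0 higher and 3 lower (1001 and 728 at an unadjusted p below 0.05, where limma gave 1320 and 986). Background correction by normexp shrank Etv1 to -2.94 and the calls to 818 higher and 517 lower probes. Requiring all 4 arrays left 666 and 606, and limma treat left 748 and 440. Spike-in scaling gave 1434 lower probes and moved the share of called probes that were higher from 57.4% to 43.5%. Beyond what the stricter filters and tests are built to do, the cause was not tested. Of the values of the other named genes over these alternatives, 711 were unchanged in direction and call, 12 gained and 19 lost the call, and 11, all of genes that were not called, changed sign. With spike-in scaling these were Aldh1a1 (-0.10), Cd3e (-0.0259), Cd68 (-0.0141), Cic (-0.13), Mapk3 (-0.17) and Pecam1 (-0.13). The others were Crebbp with the mean over probes (0.0902), Elk1 with normexp (0.00615), Etv6 without GO2 replicate 1, and Pecam1 and Wt1 without ID8G replicate 2. Part of the 711 was fixed in advance, because the other tests, the filters and the replicate block leave a difference as it is. Under those, no sign could change and no gene under 2-fold could gain a call. With each array left out in turn the differences ran from -0.0953 to 0.0417 for Etv6, -0.0227 to 0.175 for Pecam1 and -0.216 to 0.0232 for Wt1.

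Leaving out 1 array gave 1230 to 1311 probes higher, 934 to 1011 lower, 2 members called each time, 0 other ETS genes each time and 18 to 21 list genes. Deviations of arrays with the same replicate number correlated at 0.0273, so no strong shared effect was seen. With 2 arrays per line this cannot settle whether the numbers pair the arrays. With the number as a block, 1251 probes were higher and 936 lower, 2 members were called, 0 other ETS genes and 18 list genes. For Etv1 and the 4 members at background, the depth of signal over background sets the limit: only a bound or no fold can be given.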

Other observations

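Etv1 lies on mouse chromosome 12, and genes near it in RefSeq order (GRCm38.p6) were looked at after its values were seen. Sostdc1, Meox2, Dgkb, Scin and Lsmem1 were not well above background on any array. Arl4a, a small GTPase of the ARF family, differed by -0.22 (95% interval -0.39 to -0.05). Agmo, which cleaves ether lipids, differed by -0.25 (95% interval -0.54 to 0.04), and Ifrd1 by -0.10 (95% interval -0.25 to 0.04). Zfp277, a zinc finger gene, had the lowest value of the 4 genes tested at -0.33 (limma, adjusted p = 0.0123), under 2-fold. None of the 4 intervals reaches the 2-fold limit, whereas the bound for Etv1 itself is 16.4-fold.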
